A study of Mus musculus with 18 samples.

Results

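The response to palmitate was examined in C2C12 myotubes in which Mk5 had been silenced. C2C12 is an established mouse myoblast line that fuses into multinucleated myotubes in low-serum medium. Cells were transfected with a pool of siRNAs against Mk5 (siMk5), differentiated for 6 days and then held for 16 h in serum-free medium with 0.5 mM palmitic acid bound to bovine serum albumin (PA) or with albumin alone (BSA). The comparison took 6 of the 18 libraries of the series by their labels, 3 of siMk5 PA and 3 of siMk5 BSA. The other 12 came from myotubes of the same line with a non-targeting siRNA (siNTC) or with siRNAs against Erk3 (siErk3), each with BSA or PA and 3 libraries per group. The response of siMk5 was set against that of siNTC, which shares no library with it. All libraries carried an siRNA pool and the transfection reagent, and no group was left untransfected. The labels do not say if replicates were grown apart, so p-values measure the spread between these libraries, which may be technical.

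Mk5, encoded by Mapkapk5, is a serine/threonine kinase that binds and is activated by the atypical MAP kinase ERK3, encoded by Mapk6. Palmitate is a saturated fatty acid that muscle cells burn or store as triglyceride, and an excess of it is known to disturb the membrane of the endoplasmic reticulum (ER) and to trigger the unfolded protein response, in which the sensors IRE1, PERK and ATF6 raise chaperones and the transcription factors ATF4 and CHOP. Type I interferon signals through a receptor, JAK kinases and transcription factors such as STAT2 and IRF9, which bind an interferon-stimulated response element (ISRE) in the promoters of antiviral and antigen-presenting genes.

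Mapkapk5 (chr5:121663101-121683968, GRCm39, minus strand) was read at a low level. In BSA it stood at 1.18, 2.01 and 1.70 CPM (read pairs per 1e6 assigned pairs, with library sizes scaled by TMM) in the 3 siMk5 libraries, below the 2.53, 2.54 and 2.32 CPM of siNTC. In PA it stood at 2.43, 2.33 and 2.17 CPM in siMk5 and at 2.52, 3.92 and 3.28 in siNTC. The siMk5 libraries thus lay below all siNTC libraries in both media. The difference was -0.61 ± 0.21 on the log2 scale (SE, n = 3 per group) in BSA and -0.49 ± 0.18 in PA, with an FDR of 0.469 in both from edgeR's quasi-likelihood test, and an exact two-sided permutation test gave p = 0.1, the smallest that 3 against 3 libraries allow. These levels rest on 27 to 54 read pairs per siMk5 library. Moreover, 1801 exonic bases are shared by Mapkapk5 and the predicted gene Gm42878 on the same strand, so that read pairs there cannot be assigned to 1 gene. Within siMk5, Mapkapk5 was higher in PA than in BSA in all 3 libraries, by 0.52 ± 0.21 (FDR = 0.0412). This call was lost by DESeq2 (0.50), with the 18S share of each library as a covariate (0.61), and without siMk5 BSA replicate 1 (0.3), siMk5 BSA replicate 3 (0.54), siMk5 PA replicate 1 (0.48) or siMk5 PA replicate 2 (0.51). Mapk6 rose in siMk5 from 136, 135 and 137 CPM in BSA to 235, 233 and 214 in PA, by 0.74 ± 0.06 on the log2 scale (FDR = 1.36e-12), and by 0.81 in siNTC.

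The siMk5 libraries held 19782395 to 23383590 assigned read pairs, within the range of 13041979 to 28496727 over all 18. They differed in the share of read pairs on Rn18s-rs5, a copy of the 18S ribosomal RNA gene. In siMk5 BSA that share was 10.78%, 12.87% and 8.39%, and in siMk5 PA it was 4.34%, 1.71% and 6.69%. It was therefore higher in every siMk5 BSA library than in any siMk5 PA library, whereas in siNTC it was 2.56%, 7.17% and 5.64% in BSA and 5.32%, 6.12% and 6.43% in PA. In siNTC both media overlapped. A fit with this share as a covariate was therefore run. It is given below for the counts of called genes, the interferon list and some single genes. Other medians of gene lists are given without it. With it, 10 of 21 list medians of the siMk5 response and 6 of 21 of the interaction were marked as moved, among them those of the interferon list. Of 10 myotube markers, the summed level was 12200 to 13500 CPM in siMk5 BSA and 12400 to 13100 in siMk5 PA, so the labelled cell type was present in every library.

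PA changed a large share of the transcriptome of siMk5 myotubes. A gene was called where its FDR was below 0.05 and its fold change above 1.3. Of 21772 genes tested, 3280 rose (15.1%) and 3181 fell (14.6%) in siMk5, whereas 3381 rose (15.5%) and 3280 fell (15.1%) in siNTC. In siMk5, 554 called genes rose and 248 fell more than 4-fold. The PA and BSA libraries did not overlap in 6305 of the 6461 called genes. Those genes were called on these same libraries, so this count adds no support, and the share over all genes is not given here. Both responses had much in common. The genes that rose in both conditions numbered 2762, 84.2% of those that rose in siMk5 and 81.7% of those that rose in siNTC, and 2493 fell in both (78.4% and 76.0%). Opposite calls were found for 5 genes. Over 12734 genes with a mean of at least 1 CPM, the log2 fold changes had r = 0.96 across genes, which are not independent replicates, and the same spread (SD 0.79 in siMk5 and 0.80 in siNTC). The difference of both responses, the interaction of PA with siMk5, was called for 46 genes. Of these, 35 had a lower (0.161%) and 11 a higher (0.0505%) log2 fold change in siMk5. A response counted as weaker where the siNTC response was called and the interaction had the opposite sign. Otherwise it counted as stronger where the siMk5 response was called and the interaction had the same sign. There were 33 weaker rises, 7 weaker falls, 2 stronger rises and 1 stronger fall in siMk5, and 3 genes were neither. By this rule a weaker rise may be a gene not called in siMk5, such as Slfn9 (0.27) or Ly6a (-0.08). Col7a1 counts as a weaker fall although its log2 fold change was 0.45 in siMk5 and -0.56 in siNTC.

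**Figure D1:**
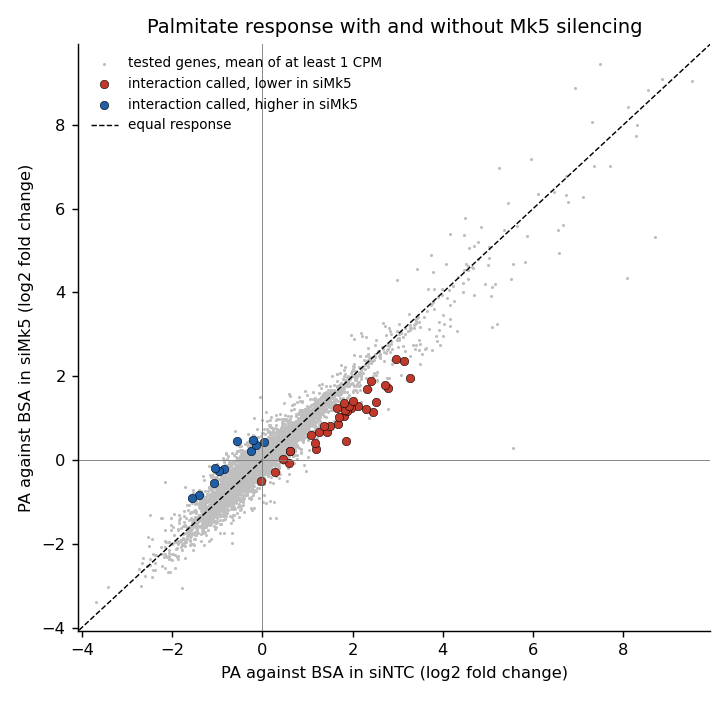
Palmitate response (log2 fold change of PA against BSA, 3 libraries per group) of each gene in siNTC on the x axis and in siMk5 on the y axis, with grey points for genes with a mean of at least 1 CPM and a dashed line where both are equal. The points follow the line (r = 0.96). Red points mark genes with a lower and blue points genes with a higher log2 fold change in siMk5 by the test of the difference.

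The genes of the unfolded protein response rose with and without Mk5 silencing. All 34 tested members of a list of ER chaperones, foldases and degradation factors rose in siMk5, with a median of 1.48 on the log2 scale, and all 34 rose in siNTC, with a median of 1.56, while the median over all genes was -0.01 and -0.03. Hspa5, the ER chaperone BiP, went from 765, 771 and 787 CPM in siMk5 BSA to 8730, 8020 and 7580 CPM in PA. This was a rise of 3.39 ± 0.06 on the log2 scale (FDR = 1.27e-27), against 3.43 in siNTC, and the difference of -0.04 had a 95% interval of -0.20 to 0.12. Creld2, a secreted ER stress protein, rose by 3.27 ± 0.05 from 46.7, 44.9 and 45.4 to 470, 426 and 428 CPM. Pdia4, a protein disulfide isomerase, stood at 140, 146 and 144 CPM in BSA and at 1100, 1020 and 990 in PA, beside 1100 to 1170 CPM in siNTC PA.

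The targets of ATF4, which supply amino acids and glutathione under stress, rose in both conditions as well. Of 39 tested members, 38 rose in each condition, with medians of 1.76 in siMk5 and 1.75 in siNTC. Trib3, a pseudokinase that restrains AKT, went from 3.49, 3.57 and 4.18 CPM in siMk5 BSA to 131, 130 and 121 CPM in PA, a rise of 5.09 ± 0.08 (FDR = 7.46e-29) against 5.02 in siNTC. Ddit3, which encodes CHOP, rose from 13.4, 13.3 and 13.6 to 254, 237 and 226 CPM, by 4.16 ± 0.08. Slc7a11, the cystine importer, rose from 1.35, 1.36 and 1.55 to 409, 370 and 313 CPM, by 8.0 ± 0.17, close to 8.31 in siNTC. In each of these the PA libraries of siMk5 lay far above all BSA libraries and overlapped with those of siNTC PA. No member of either list had a called interaction. At an unadjusted p below 0.05, 4 members of the ER list and 2 of the ATF4 list differed, and DESeq2 called 0 in each, with median interactions of -0.07 and -0.06. Over all genes that median was -0.02.

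The promoters of such genes carry known elements, shown here for the genes described above and for members of both lists with a match. The windows come from RefSeq on GRCm38.p6, another build than that of the counts, and run from 250 bases before to 50 after the start of the gene, 300 bases in all. A window was at hand for 11497 of the 14989 tested protein-coding genes. Of the windows searched on both strands, the ER stress response element (ERSE), CCAAT and CCACG with 9 bases between, was in 10 of 28 windows of the ER list (35.7%) and in 22 of all 11497 (0.191%). The ATF4-CHOP element, TGATGNAA, was in 12 of 34 windows of the ATF4 list (35.3%) and in 342 of all (2.97%). A match is a description of these letters and not of binding. In the following stretches of 60 bases, read 5′ to 3′ on the strand of the gene, capitals mark the match.
Hspa5, chr2:34772004-34772063 (plus strand): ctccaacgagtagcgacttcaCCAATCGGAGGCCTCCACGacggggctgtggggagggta
Creld2, chr15:88819499-88819558 (plus strand): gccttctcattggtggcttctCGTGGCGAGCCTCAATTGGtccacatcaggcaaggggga
Asns, chr6:7693210-7693269 (minus strand): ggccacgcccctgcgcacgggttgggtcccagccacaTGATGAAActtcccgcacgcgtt
Chac1, chr2:119351023-119351082 (plus strand): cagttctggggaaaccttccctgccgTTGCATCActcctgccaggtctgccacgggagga

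Asns and Chac1, which were chosen after their values were seen, encode asparagine synthetase and a glutathione-degrading enzyme. Asns stood at 38.2, 35.7 and 38.4 CPM in siMk5 BSA and at 212, 196 and 183 in PA, and Chac1 at 6.54, 7.30 and 6.86 and at 98.2, 96.8 and 89.6. Both rose, by 2.39 and 3.78 on the log2 scale.

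**Figure D2:**
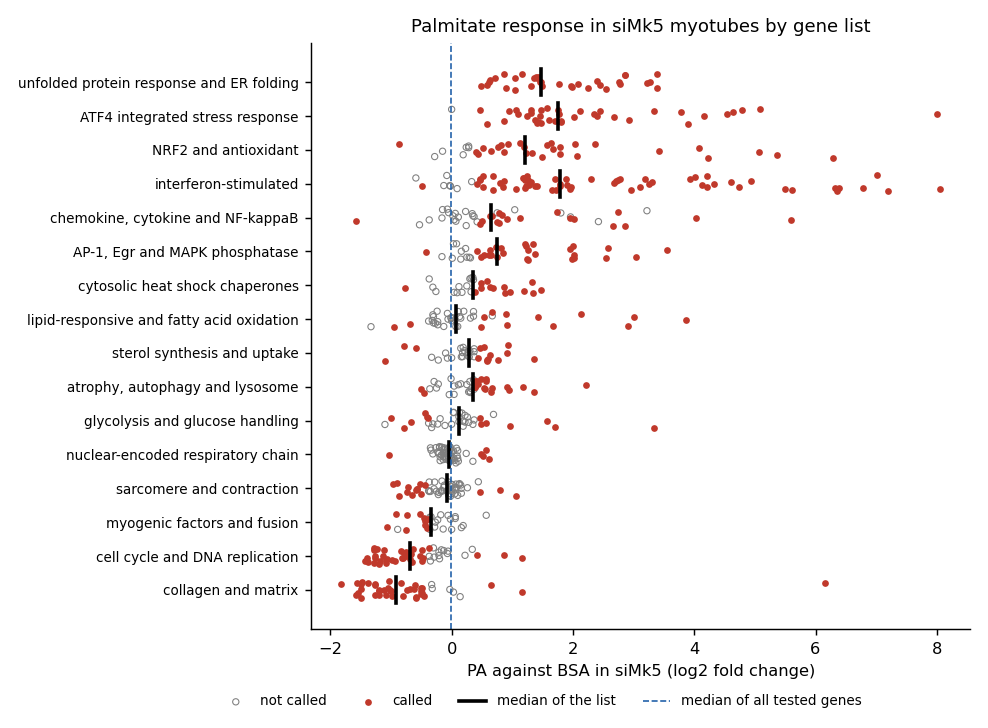
Log2 fold change of PA against BSA in siMk5 for each tested member of 16 gene lists, with filled points for genes that passed the test, a bar for the median of the list and a dashed line for the median of all genes tested. ER folding, ATF4, NRF2 and interferon-stimulated genes lie mostly above 0, and cell cycle and matrix genes mostly below.

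Antioxidant genes driven by NRF2 rose as a group. Of 34 tested, 27 rose and 1 fell in siMk5 (median 1.21) and 26 rose and 1 fell in siNTC (median 1.40). Hmox1, heme oxygenase, stood at 26.9, 28.5 and 31.2 CPM in siMk5 BSA and at 614, 522 and 486 in PA, a rise of 4.23 ± 0.12. Srxn1, sulfiredoxin, rose by 3.42 from 19.2, 19.5 and 21.1 to 216, 221 and 201 CPM. Of 27 cytosolic and mitochondrial heat shock chaperones and related genes, 13 rose and 1 fell in siMk5 (median 0.36). Over all genes 15.1% rose and 14.6% fell. Hspd1, the mitochondrial chaperonin, went from 191, 198 and 205 to 527, 498 and 471 CPM. The interaction was called for no member of either list. At an unadjusted p below 0.05, 2 and 1 members differed, and 0 did by DESeq2.

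Of 41 tested members of a list of lipid-responsive and fatty acid oxidation genes 11 rose and 2 fell in siMk5, with a median of 0.07. Over all genes 15.1% rose and 14.6% fell. Angptl4, a secreted inhibitor of lipoprotein lipase and a target of the PPAR receptors, stood at 24.2, 25.1 and 26.6 CPM in siMk5 BSA and at 375, 371 and 357 in PA, and rose by 3.86 ± 0.06 (FDR = 4.31e-30). In siNTC PA it reached 391 to 404 CPM, above all siMk5 PA libraries, but the interaction of -0.23 was not called (FDR = 0.416). Plin2, which coats lipid droplets, rose by 2.91 from 72.6, 74.8 and 75.6 to 598, 559 and 524 CPM, and the difference from siNTC had an interval of -0.29 to 0.06. Pdk4, which blocks entry of pyruvate into the citrate cycle, rose by 1.43, and Cpt1a, which carries fatty acids into mitochondria, by 0.89, against 1.17 in siNTC (interaction -0.28, FDR = 0.389). Of 31 sterol genes 11 rose and 3 fell, with a median of 0.29. Insig1, which holds the sterol sensor in the ER, rose from 85.5, 82.4 and 85.7 to 211, 224 and 214 CPM. Of 22 genes for fatty acid synthesis 3 rose and 3 fell, near the shares over all genes.

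By size, the 10 largest rises in siMk5 among protein-coding genes with a mean of at least 5 CPM were Tpsab1, Oasl1, Slc7a11, Car6, Cxcl10, Rsad2, Ccl5, Cmpk2, Ifit1 and Plek, from 9.04 down to 6.14 on the log2 scale. Tpsab1, a mast cell tryptase, was at 0.174, 0.302 and 0.464 CPM in BSA and at 162, 174 and 153 in PA, and it rose by 9.53 in siNTC. Of these genes, 6 are on the interferon list: Oasl1, Cxcl10, Rsad2, Ccl5, Cmpk2 and Ifit1. The largest falls were Rtn4r, Shisal1, Spon2, Rab7b, Fam180a, Rgcc, Abca9, Atoh8, Cacna1g and Rgs4, from -2.79 to -2.35. Rtn4r, the Nogo receptor, went from 12.6, 14.5 and 20.5 to 1.80, 2.80 and 2.27 CPM.

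Interferon-stimulated genes rose in siMk5, but many rose less than in siNTC. Of 67 tested, 59 rose and 1 fell in siMk5, with a median of 1.79, whereas 63 rose and none fell in siNTC, with a median of 2.54. The summed level of the list was 1060 to 1210 CPM in siMk5 BSA and 1040 to 1140 in siNTC BSA, which overlapped. In PA it was 2370, 2670 and 2880 CPM in siMk5 and 3800, 4210 and 4250 in siNTC, which did not overlap. The interaction lay below 0 in 63 of the 67 members, with a median of -0.71, and was called lower for 19, while over all genes it lay below 0 in 53.9% and was called lower in 0.161%. At an unadjusted p below 0.05 it differed in 51 members, beside 1617 of all 21772 genes, and DESeq2 called 24. With the 18S share as a covariate the median was -0.44 and no member was called.

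**Figure D3:**
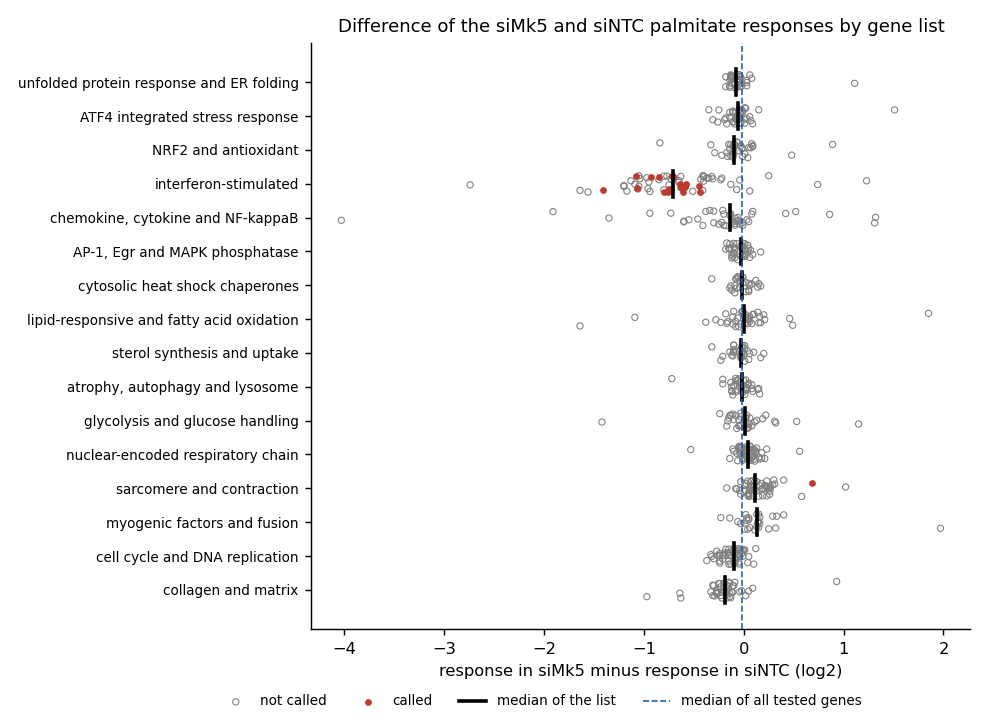
Response in siMk5 minus response in siNTC (log2) for each tested member of the same 16 gene lists, with filled points for genes that passed the test of the difference, a bar for the median of the list and a dashed line for the median of all genes tested. The interferon-stimulated list is centred on -0.71 and holds 19 called genes, and Trdn in the sarcomere list is the other called gene shown.

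Since the promoters of interferon-stimulated genes are known for the ISRE, its core, GAAANNGAA, was searched on both strands in the same windows, where matches may overlap. It was found in 25 of 49 windows of the interferon list (51.0%) and in 995 of all 11497 windows (8.65%). For the 35 genes with a lower log2 fold change in siMk5 it was in 13 of 24 windows (54.2%). For those with a higher log2 fold change it was in 1 of 5 windows. The first 5 stretches below belong to genes with a lower response, and the last 2 to genes that rose strongly in both conditions and whose interaction was not called, as described below. Capitals mark the match or overlapping matches.
Gbp2, chr3:142620579-142620638 (plus strand): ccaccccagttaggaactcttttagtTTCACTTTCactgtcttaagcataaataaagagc
Gbp2b, chr3:142594685-142594744 (plus strand): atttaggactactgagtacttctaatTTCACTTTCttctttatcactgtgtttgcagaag
Tgtp2, chr11:49064249-49064308 (minus strand): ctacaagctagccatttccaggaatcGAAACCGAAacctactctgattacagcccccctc
Irgm1, chr11:48871421-48871480 (minus strand): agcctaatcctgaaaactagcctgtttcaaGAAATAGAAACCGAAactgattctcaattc
Slfn9, chr11:82991841-82991900 (minus strand): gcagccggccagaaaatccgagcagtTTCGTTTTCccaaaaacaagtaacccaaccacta
Ifit1, chr19:34640754-34640813 (plus strand): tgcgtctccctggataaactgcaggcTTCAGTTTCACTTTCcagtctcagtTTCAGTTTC
Isg15, chr4:156200863-156200922 (minus strand): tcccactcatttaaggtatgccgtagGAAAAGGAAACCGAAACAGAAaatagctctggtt

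The largest called difference was that of Gbp2, a guanylate-binding GTPase that acts against intracellular microbes. It stood at 4.06, 4.28 and 3.92 CPM in siMk5 BSA and at 6.02, 5.73 and 5.01 in siMk5 PA, whereas it went from 3.16, 3.67 and 3.78 to 15, 10.8 and 13.3 CPM in siNTC. Every siNTC PA library was thus well above every siMk5 PA library, while the siMk5 BSA libraries were the higher ones in BSA. Gbp2 rose by 0.46 ± 0.15 in siMk5 and by 1.86 in siNTC, an interaction of -1.41 ± 0.21 (FDR = 0.000644). With the 18S share as a covariate the difference was -1.29 (FDR = 0.135), and Gbp2 was no longer called in siMk5. Gbp2b rose by 1.15 against 2.45 in siNTC. Members of the Gbp, Tgtp, Ifit, Oas and Slfn families have close copies between which reads may be split, so their values are less certain.

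Irgm1, an immunity-related GTPase that acts against intracellular bacteria, stood at 37.6, 34.9 and 37.8 CPM in siMk5 BSA and at 96.3, 84.8 and 90.3 in PA. In siNTC it went from 38, 36.3 and 33.4 to 143, 127 and 138 CPM. The BSA libraries overlapped, and in PA both conditions were clearly apart. Irgm1 rose by 1.3 in siMk5 and by 1.92 in siNTC, an interaction of -0.63 ± 0.09 (FDR = 0.000557). Stat2, a transcription factor of the interferon response, rose by 1.70 against 2.32, with an interaction of -0.61 (FDR = 0.00314).

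Several poly(ADP-ribose) polymerases of the interferon response followed. Parp14 went from 13.9, 14.9 and 13.5 CPM to 56.2, 41.7 and 48.7 in siMk5, and reached 96.2, 80.5 and 95.5 CPM in siNTC PA, so that the PA libraries did not overlap (interaction -0.93, FDR = 0.00125). Parp12 rose by 0.41 against 1.17 (interaction -0.76, FDR = 0.000191). Parp9, Parp10 and Dtx3l, the ubiquitin ligase partner of PARP9, had interactions of -0.71, -0.58 and -0.75. Rnf213, a large ubiquitin ligase found on lipid droplets and on bacteria, went from 87.4, 93.1 and 96.2 to 547, 413 and 472 CPM in siMk5 and from 88.6, 90.3 and 90.4 to 812, 721 and 852 CPM in siNTC. It rose by 2.37 against 3.15, an interaction of -0.77 ± 0.11 (FDR = 0.000557).

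Sensors and effectors of the antiviral state were among the 35 as well. Rigi, a sensor of viral RNA, had an interaction of -0.72, and Eif2ak2, the kinase PKR that senses double-stranded RNA, one of -0.64. Bst2, tetherin, which holds budding virions at the cell surface, rose in siMk5 from 10.2, 11.5 and 14.8 to 39.5, 34.5 and 45.9 CPM and in siNTC to 73.6, 70.6 and 77.6 CPM (interaction -1.07, FDR = 0.00632). Samd9l rose by 1.17 against 1.87 (interaction -0.71, FDR = 0.000644). Adar, Ifit2, Sp100 and Lgals3bp were further members of the list in the group, with interactions of -0.44, -0.59, -0.80 and -0.75. Lgals3bp was not called by DESeq2.

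Members of the interferon list that serve antigen presentation on class I molecules were described after their values were seen. Tap1, a subunit of the peptide transporter, went from 3.71, 3.32 and 3.97 to 9.53, 7.36 and 8.51 CPM in siMk5 and from 4.14, 3.21 and 2.79 to 16.8, 14.5 and 17.3 CPM in siNTC, a rise of 1.21 against 2.29 (interaction -1.08, FDR = 0.0169). Tapbp, tapasin, which loads the peptides, fell in siMk5 from 128, 140 and 162 to 99.9, 95.9 and 110 CPM, by 0.49 on the log2 scale, and was the one member of the list that fell. In siNTC it stood at 128, 146 and 146 CPM in BSA and at 143, 135 and 131 in PA, so the interaction was -0.45 (FDR = 0.0323). B2m, the light chain, rose by 0.47 against 0.79, and its interaction of -0.31 was not called (FDR = 0.0531). Nor was that of the heavy chain genes H2-K1 (-0.41) and H2-D1 (-0.23), of Tap2 (-0.41) or of the immunoproteasome subunits Psmb8 (-1.56 ± 0.39, FDR = 0.11) and Psmb9 (-2.74 ± 0.65, FDR = 0.075), the last at no more than 1.03 CPM in any siMk5 or siNTC library.

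The remaining 16 of the 35 genes were not on the interferon list: Tgtp2, Gbp2b, AW011738, Slfn9, Rnf213, Ly6a, Gm6548, Lgals9, Lipg, Ifi203, Helz2, Znfx1, H2-T22, Ly6e, Tor1aip1 and Tor3a. Slfn9, of the Schlafen family, stood at 11.6, 11.8 and 10.4 CPM in siMk5 BSA and at 14.6, 10.9 and 15.3 in PA, which overlapped, and in siNTC it went from 10.4, 12 and 9.79 to 26.7, 21.3 and 26.1 CPM. Its log2 fold change of 0.27 in siMk5 was not called (FDR = 0.0874), and the interaction was -0.93 (FDR = 0.00844). Ly6a, the surface protein Sca-1, had log2 fold changes of -0.08 in siMk5 and 0.60 in siNTC.

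The 35 genes were picked by a test on these same libraries, so how far their groups lie apart follows in part from that choice. In 35 of 35 of these genes, all siMk5 PA libraries lay below all siNTC PA libraries. In BSA that was so in 1 of 35, and in 4 of 35 all siMk5 BSA libraries lay above. These counts are a description, and the shares over all genes are not given here. Expressed as siMk5 against siNTC, the log2 difference ranged from -1.22 to -0.35 in PA and from -0.17 to 0.37 in BSA. All 46 interactions kept their sign with the 18S share as a covariate, but 1 of the 46 was still called, Art1 (FDR = 0.0227), of 2 calls in all. As the share was higher in siMk5 BSA than in siMk5 PA in every library, its part in these differences was not tested beyond that fit.

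**Figure D4:**
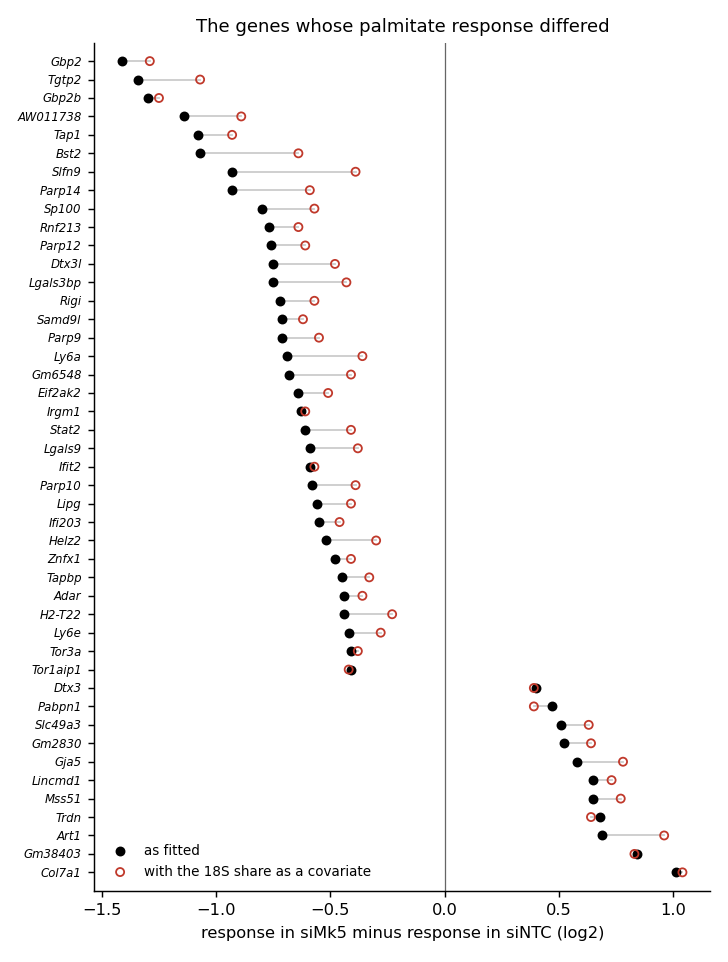
Response in siMk5 minus response in siNTC (log2) of the genes with a called difference, 1 of them not shown, as fitted (filled) and with the 18S share of each library as a covariate (open). Each gene keeps its sign, from -1.41 for Gbp2 to 1.01 for Col7a1, and Bst2 and Slfn9 are among those that move far toward 0 with the covariate.

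Other interferon-stimulated genes had no called difference, and several of them were near 0 in BSA and had wide errors. Ifit1, which binds foreign RNA, went from 1.61, 1.81 and 2.06 to 174, 134 and 128 CPM in siMk5, below the 242, 216 and 247 CPM of siNTC PA. It rose by 6.32 ± 0.21, and its interaction of -0.40 ± 0.42 had an interval of -1.23 to 0.43. Isg15, a ubiquitin-like modifier, reached 60.3, 40.0 and 49.3 CPM in siMk5 PA and 99.6, 88.2 and 104 in siNTC PA, rises of 4.13 and 5.10, with an interaction of -0.97 ± 0.31 (interval -1.57 to -0.37) that failed the correction (FDR = 0.345). Cxcl10, a chemokine, went from 0.131, 0.352 and 0.671 to 59.8, 44.1 and 41.8 CPM (7.02 ± 0.22). Rsad2, viperin, had an interaction of 0.06 ± 0.60 with an interval from -1.12 to 1.23, and it stood at 25.8, 18 and 21.3 CPM in siMk5 PA, below the 30.8, 29.5 and 37.5 of siNTC PA. For Ifit1 and Rsad2 a difference of the sizes above could not be told from 0 in these libraries.

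Genes upstream in the pathway, chosen after their values were seen, differed among themselves. Ifnb1, interferon beta, had 0 read pairs in every BSA library, 1, 1 and 2 in siMk5 PA and 1, 2 and 4 in siNTC PA, so that a difference between siMk5 and siNTC was not detectable at this depth. Its rise with PA was called in siNTC (FDR = 0.0182) and not in siMk5 (FDR = 0.0652). Cgas, a sensor of cytosolic DNA, rose by 1.12 in siMk5 and by 1.31 in siNTC. Socs1, an inhibitor of JAK kinases, rose by 0.70 and by 1.11 (interaction -0.41, FDR = 0.65). Tlr3, a receptor for double-stranded RNA, had a log2 fold change of 0.24 in siMk5 and 1.04 in siNTC (interaction -0.81, FDR = 0.123), and it was lower in siMk5 PA than in siNTC PA (-0.89, FDR = 8.89e-05). The receptor chain Ifnar1 and the kinase Jak1 had log2 fold changes of 0.35 and -0.02 in siMk5.

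**Figure D5:**
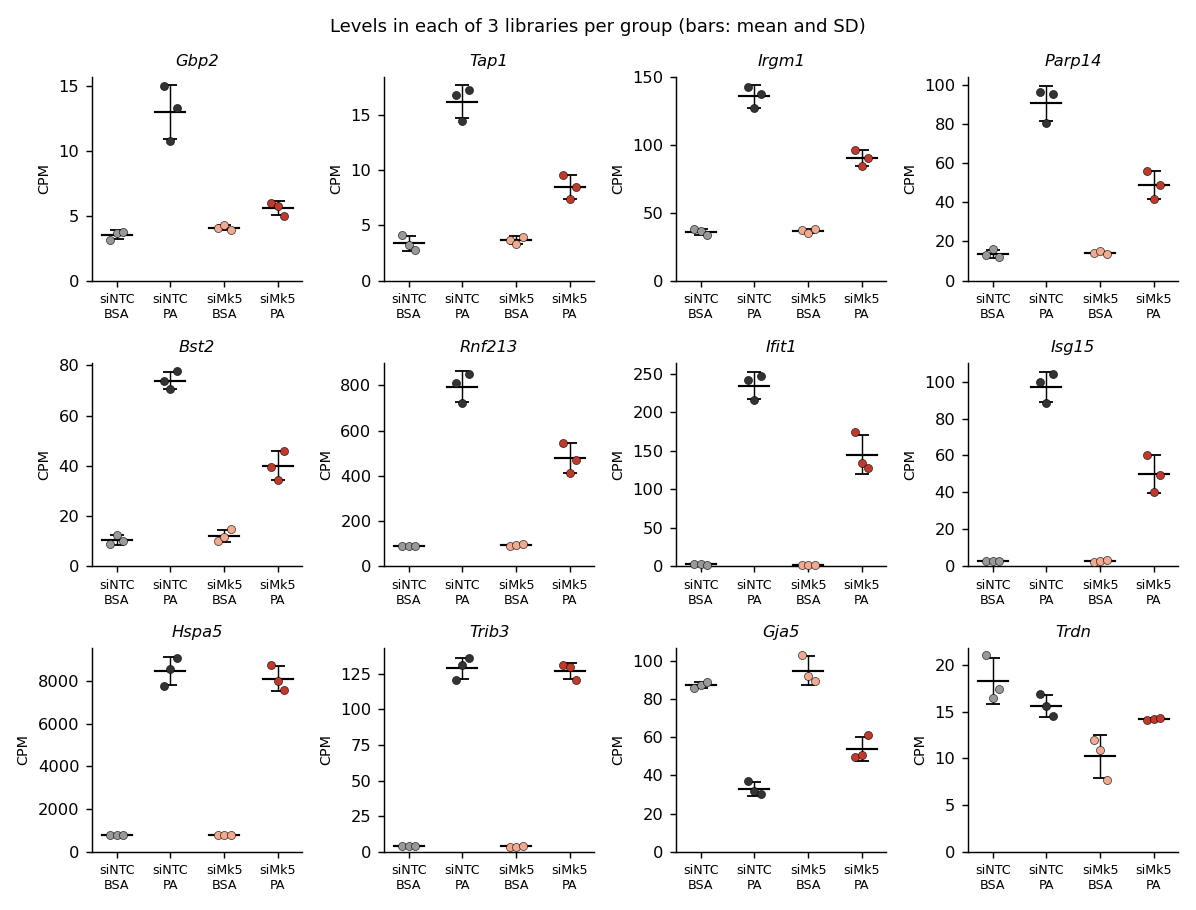
CPM of 12 genes in each of the 3 libraries of siNTC and siMk5 with BSA and PA, with a bar for the mean and whiskers for the SD. Gbp2, Tap1, Irgm1, Parp14, Bst2, Rnf213, Ifit1 and Isg15 reach lower levels in siMk5 PA than in siNTC PA, and Hspa5 and Trib3 reach overlapping ones. Gja5 falls less in siMk5 than in siNTC, and Trdn rises in siMk5.

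Inflammatory genes outside the interferon list rose in part. Of 42 tested chemokine, cytokine and NF-kappaB genes 18 rose and 1 fell in siMk5 (median 0.65), and 24 rose and 1 fell in siNTC (median 0.74). Ptgs2, the inducible cyclooxygenase, went from 35.4, 32.7 and 31.2 to 1880, 1570 and 1340 CPM, a rise of 5.59 ± 0.17 against 5.65 in siNTC. Ccl2, a chemokine for monocytes, rose by 2.66 from 4.54, 3.12 and 4.95 to 33.3, 24.7 and 21.4 CPM, against 3.38 in siNTC, and the interaction of -0.73 failed the correction (FDR = 0.442). The list had no called interaction, although 11 members differed at an unadjusted p below 0.05, with a median of -0.13 and 0 calls by DESeq2. For Vcam1, an adhesion molecule, the interaction of -0.30 passed the FDR (0.0369) but not the fold. Of 37 AP-1, Egr and MAP kinase phosphatase genes 26 rose and 1 fell, with a median of 0.74, among them Fosl1, which rose by 3.55 from 7.33, 8.40 and 8.41 to 112, 88.6 and 81.7 CPM. Of 30 genes for ERK3, MK5 and other MAP kinases and their partners 8 rose and 5 fell, beside 15.1% and 14.6% of all genes. Foxo1, a transcription factor of insulin signaling, fell by 0.98.

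The 11 genes with a higher log2 fold change in siMk5 form a smaller and more mixed group, with interactions from 0.40 to 1.01. The 7 weaker falls and the 2 stronger rises are among them. Their starting levels differed: in 9 of 11 all siMk5 BSA libraries lay below all siNTC BSA libraries, and in 9 of 11 all siMk5 PA libraries lay above all siNTC PA libraries. As these 11 genes were also picked by a test on these libraries, both counts follow in part from that choice. Trdn, triadin, which anchors the calcium release machinery of the sarcoplasmic reticulum, went from 12, 10.9 and 7.69 to 14.1, 14.2 and 14.3 CPM in siMk5. In siNTC it stood at 21.1, 16.5 and 17.4 CPM in BSA and at 16.9, 15.6 and 14.5 in PA. So it was lower in siMk5 BSA than in siNTC BSA (-0.82, FDR = 0.000131), whereas both conditions were close in PA, and it rose by 0.47 in siMk5 with an interaction of 0.68 (FDR = 0.0395). With the 18S share as a covariate the interaction was 0.64, and Trdn was called neither in siMk5 nor in the interaction. Mss51, a muscle regulator of mitochondrial respiration, was likewise lower in siMk5 BSA (17.7, 14.2 and 11.7 against 25.1, 24.7 and 22.2 CPM, -0.71, FDR = 0.000194) and had an interaction of 0.65 (FDR = 0.0368). Mb, myoglobin, had an interaction of 0.33 that passed the FDR (0.0175) but not the fold.

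For Gja5, the gap junction protein connexin 40, the siMk5 libraries were instead higher in PA. It fell in siMk5 from 103, 92.3 and 89.4 to 49.7, 50.6 and 61.0 CPM and in siNTC from 85.7, 87.3 and 89.2 to 36.9, 31.6 and 30.1 CPM, that is by 0.83 and 1.41 on the log2 scale (interaction 0.58, FDR = 0.00993). Art1, an ADP-ribosyltransferase of the muscle surface, had log2 fold changes of -0.27 in siMk5, which was not called, and -0.95 in siNTC. Slc49a3 fell by 0.56 against 1.07. Col7a1, anchoring fibril collagen, went in opposite directions, from 5.36, 5.23 and 3.66 to 6.88, 6.62 and 6.09 CPM in siMk5, and it had the largest interaction of the group (1.01, FDR = 0.0101). Its rise in siMk5 was not called with the 18S share as a covariate. Dtx3, a ubiquitin ligase, rose in siMk5 from 43.3, 41.0 and 42.8 to 58.5, 56.0 and 58.4 CPM, and had a log2 fold change of 0.04 in siNTC (interaction 0.40, FDR = 0.00537). Pabpn1, the nuclear poly(A)-binding protein, had log2 fold changes of 0.21 and -0.25.

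Cell cycle genes and matrix genes were the lists with the most falls in siMk5. Of 49 cell cycle and DNA replication genes 33 fell and 3 rose in siMk5 (median -0.68), and 29 fell and 4 rose in siNTC (median -0.44). Mki67, a marker of dividing cells, went from 422, 454 and 416 to 176, 175 and 183 CPM, a fall by 1.28 on the log2 scale. The interaction of the list had a median of -0.10 with 43 of 49 members below 0 and no call. The summed level of 8 markers of dividing or undifferentiated myoblasts was 942 to 974 CPM in siMk5 BSA and 435 to 453 in siMk5 PA. Of the 8, 6 fell. Mki67, Top2a, Ccnb1 and Cdk1 are also on the cell cycle list, so this sum is not independent of it. In RNA from whole cultures, fewer such cells and less RNA per cell cannot be told apart.

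Of 44 collagen and matrix genes 36 fell and 3 rose in siMk5 (median -0.91), against 31 and 3 in siNTC (median -0.62). Thbs1, thrombospondin, fell from 4810, 5090 and 5210 to 1260, 1460 and 1570 CPM, with a log2 fold change of -1.82 ± 0.09. Col3a1 went from 7140, 7900 and 9190 to 2410, 2960 and 3270 CPM (-1.49 ± 0.12), which overlapped with the 2760 to 3870 CPM of siNTC PA. Mmp13, a collagenase, was one of the genes that rose, from at most 0.103 to 5.12, 4.57 and 5.21 CPM. The interaction of the list lay below 0 in 40 of 44 members (53.9% of all genes), with a median of -0.19, but none was called. At an unadjusted p below 0.05, 13 of 44 differed (1617 of all 21772), and DESeq2 called 0. The summed level of 7 fibroblast markers went from 181 to 208 CPM in BSA to 95.7 to 110 in PA, and 6 of the 7 fell. Of these markers, Dcn and Lum are also on the matrix list, so the sum is not independent of it. The part of the markers in the matrix result was not tested.

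Muscle genes had medians nearer 0 in siMk5 than in siNTC, and Trdn was the 1 gene that passed the test of the difference among the 53 sarcomere and contraction genes. Of these, 12 fell and 3 rose in siMk5 (median -0.08), beside 14.6% and 15.1% of all genes. In siNTC 20 fell and 2 rose (median -0.31), beside 15.1% and 15.5%. Starting levels differed: the summed level was 31300 to 35700 CPM in siMk5 BSA, below the 36200 to 36700 of siNTC BSA. In PA it was 29900 to 32700 CPM in siMk5 and 30400 to 31100 in siNTC, which overlapped. The interaction was above 0 in 47 of 53, with a median of 0.11, while it lay above 0 in 46.1% of all genes. At an unadjusted p below 0.05 it differed in 17, and DESeq2 called 1. Tpm1, tropomyosin, fell from 1360, 1440 and 1400 to 810, 836 and 877 CPM. The calcium pump Atp2a1 of fast fibers fell by 0.97 from 267, 259 and 249 to 123, 124 and 148 CPM, whereas Atp2a2, the pump of slow fibers and heart, rose by 1.06 from 575, 561 and 545 to 1220, 1150 and 1140 CPM. Acta1, skeletal actin, had a log2 fold change of -0.06 and was not called. Of 27 myogenic factors and fusion genes 10 fell in siMk5 and 16 in siNTC, with medians of -0.34 and -0.43, and the interaction lay above 0 in 23 of them with no call. Their summed level was 5270 to 5530 CPM in siMk5 BSA, below the 5670 to 5830 of siNTC BSA. In PA both conditions overlapped (4490 to 4700 and 4440 to 4540 CPM). Myod1, which specifies myoblasts, went from 83.7, 83.6 and 83.7 to 47.0, 49.5 and 51.7 CPM.

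Mitochondrial genes moved little. Of 57 nuclear genes of the respiratory chain and its regulators 4 rose and 1 fell in siMk5, with a median of -0.05, among them Cycs, cytochrome c, from 73.1, 67.1 and 65.9 to 96.3, 95.8 and 95.9 CPM. Of 15 mitochondrially encoded genes the ribosomal RNAs mt-Rnr1 and mt-Rnr2 were the 2 that rose, and libraries selected for poly(A) measure such RNAs poorly. Of 36 genes of glycolysis and glucose handling 7 rose and 6 fell, near the shares of 15.1% and 14.6% over all genes. Hk2, hexokinase, rose by 1.71 from 44.3, 45.1 and 40.0 to 156, 133 and 134 CPM, the glucose transporter Slc2a1 rose by 1.58, and Irs1, the insulin receptor substrate, fell by 1.00 from 237, 244 and 262 to 124, 123 and 123 CPM.

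Of 37 genes of atrophy, autophagy and the lysosome 17 rose and 2 fell (median 0.36), such as Ctsl, a lysosomal protease, with 0.91. Of 40 genes of ceramide and phosphoinositide metabolism 11 rose and 14 fell, beside 15.1% and 14.6% of all genes. Cers2, which makes very long chain ceramides, rose by 1.15, and Ugcg, which glycosylates ceramide, fell by 0.68. Of 31 cell death genes 10 rose and 7 fell, with Casp4, the caspase that senses lipopolysaccharide, going from 3.27, 3.62 and 3.97 to 23.4, 22 and 20.6 CPM. Mlkl, which executes necroptosis, rose by 1.48 against 1.87 in siNTC, and the interaction of -0.40 was not called (FDR = 0.159). In 19 of the 21 pathway lists the interaction was called for no member. These lists held 672 genes, of which 77 differed at an unadjusted p below 0.05 (1617 of all 21772), 2 had an FDR below 0.05 with a fold under the limit, and DESeq2 called 0.

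Markers of other cell types were low. Of 8 macrophage markers 5 were tested and 1 rose, with a summed level of 7.25 to 7.59 CPM in siMk5 BSA and 7.79 to 8.99 in PA, and the defining Ptprc and Adgre1 had 0 read pairs in every siMk5 library. Of 8 adipocyte markers 3 were tested, with sums of 96.4 to 100 CPM and 121 to 124 CPM, and Adipoq, Plin1, Cfd and Retn were at 0. These sums were mostly Adipor2, with 1832 to 2607 read pairs per siMk5 library, beside 84 to 158 for Pparg and 0 to 2 for Cidea. Endothelial markers summed to 1.34 to 1.61 CPM in BSA and 1.5 to 2.42 in PA. The macrophage sums of siNTC PA, 7.75 to 9.45 CPM, overlapped with those of siMk5 PA, and a link to the interferon-stimulated sums was not tested.

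The siErk3 libraries give a further condition with its own response, set beside that of siMk5 with the limit that the difference from siErk3 uses the same siMk5 libraries as the difference from siNTC. In siErk3, 3440 genes rose (15.8%), and 63 of 67 interferon-stimulated genes did so, with a median of 2.18, between those of siMk5 and siNTC. Their summed level was 1450 to 1720 CPM in siErk3 BSA and 4900 to 5230 in siErk3 PA, above siNTC in both media. The response of siMk5 was lower than that of siErk3 for 16 genes (0.0735%) and higher for none. With the 18S share as a covariate 0 genes were called. At an unadjusted p below 0.05 the responses differed for 1217 genes, and DESeq2 called 22. On the interferon list 5 members were among the 16, such as Gbp2 (-1.20), Ifit2 (-0.76), Parp12 (-0.74) and Parp10 (-0.57). Gbp2b (-1.12) and Ly6a (-0.76), which are not on that list, were among the 16 as well. The log2 fold changes of Parp12 were 0.41 in siMk5, 1.15 in siErk3 and 1.17 in siNTC. Among genes with a name, the largest differences were those of Rn18s-rs5 (-2.87), Rgs9 (-2.81), Mir6236 (-2.54), Gm15564 (-2.51) and Lars2 (-2.50). Rn18s-rs5 is the 18S gene itself, whose share was 2.96%, 1.82% and 1.5% in siErk3 BSA and 3.74%, 5.87% and 6.77% in siErk3 PA, the opposite direction to siMk5.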

How the data were processed

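RNA of C2C12 myotubes was sequenced from poly(A)-selected, stranded libraries. The authors trimmed the read pairs, aligned them with STAR and deposited whole counts of read pairs per gene, made with featureCounts 2.0.0 on the reverse strand (setting 2) from primary alignments of mapping quality 3 or more. The header names Ensembl 105 on GRCm39, whereas the submitters' processing notes name mm10, and coordinates are those of the header unless another build is given. Names came from GENCODE M39 for 21601 of the 21772 genes with at least 10 counts over the 18 libraries. The table held 55414 genes, and 0 columns belonged to other samples.

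Groups came from the labels. One edgeR 4.0.16 quasi-likelihood fit (limma 3.58.1, R 4.3.3) with TMM scaling and a coefficient per group gave all comparisons, with an FDR below 0.05 by Benjamini-Hochberg and a fold change above 1.3 as the call. Standard errors are the log2 fold change over the root of F, and intervals are 95%. Exact permutation tests were two-sided. DESeq2 1.42.0, other scaling and filters, the 18S share as a covariate, the replicate number as a block and leaving out each library were alternatives. Tables, exact tests and figures were made in Python 3.11.15 (scipy 1.17.1, pandas 2.3.3, numpy 2.4.6, matplotlib 3.10.9). On simulated counts with 200 genes of log2 fold change 1, 95.5% were recovered in siMk5 and 87.5% in the interaction among 21355 genes.

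The members and gene lists were chosen with earlier results of these data known. The text names Mapkapk5 and Mapk6, the 10 largest rises and falls in siMk5 among called protein-coding genes with groups that do not overlap and a mean of at least 5 CPM, the 10 largest interactions in each direction among called protein-coding genes with a mean of at least 1 CPM, and per list the 4 smallest p-values in the response, the 4 smallest in the interaction and the 2 highest levels. The genes with a called interaction may be named as members of that group. Any other gene was chosen after its values were seen. A table of log2 values was not used here. The values of 2 genes are not reported here.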

Additional observations from a re-analysis of the deposited data

Results flagged for a closer look

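The palmitate response differed between siMk5 and siNTC by the test of the interaction for 35 genes with a lower and 11 genes with a higher log2 fold change in siMk5. Among protein-coding genes named by rule, the lower ones included Gbp2 (-1.41), Tgtp2 (-1.34), Gbp2b (-1.3), Tap1 (-1.08), Bst2 (-1.07), and Parp14 and Slfn9 (-0.93 each). Sp100 (-0.80), Rnf213 (-0.77), Parp12 (-0.76), Samd9l (-0.71) and Irgm1 (-0.63) followed, and Tapbp (-0.45), Tor1aip1 and Tor3a (-0.41 each) had smaller differences. The higher ones among protein-coding genes included Col7a1 (1.01), Art1 (0.69), Trdn (0.68), Mss51 (0.65), Gja5 (0.58), Slc49a3 (0.51), Pabpn1 (0.47) and Dtx3 (0.40). The response of siMk5 also differed from that of siErk3 for 16 genes by the same kind of test. With the 18S share of each library as a covariate, 2 and 0 genes were called in these comparisons. Groups of 3 libraries were too small for a test of single outlying values, and the counts without each library are given below.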

How the results depend on the processing

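Calls in siMk5 numbered 6461. They were 5982 by DESeq2, 6450 with its size factors, 6151 with edgeR's filterByExpr, 6365 without a filter beyond 1 count, 6464 without the 18S gene, 4918 with the 18S share as a covariate, 6422 with only the groups compared, and 5898 to 6487 when 1 library was left out. The 46 calls of the interaction became 59 by DESeq2, 33 with filterByExpr, 130 without a filter beyond 1 count, 2 with the 18S covariate and 24 to 67 when 1 library was left out. They were 24 without siMk5 BSA replicate 3, 28 without siMk5 PA replicate 2, 28 without siNTC BSA replicate 1 and 27 without siNTC BSA replicate 3, and all 46 kept their sign in these runs. Among interferon-stimulated genes the called interactions ranged from 13 to 22 when 1 library was left out, with medians from -0.78 to -0.63. Without a filter beyond 1 count 39 of them were called, against 19 in the main fit, with a median of -0.7. The 16 genes against siErk3 became 78 without a filter, 0 with the covariate and 10 to 25 when 1 library was left out, namely 25 without siMk5 BSA replicate 1, 10 without its replicate 2 and 25 without siMk5 PA replicate 1. With the 18S share as a covariate, 4552 of the 6461 calls in siMk5 were still called and 6445 kept their sign. With the 18S covariate, 12 named genes lost their call in siMk5 (Mapkapk5, Gbp2, Col7a1, Trdn, Cd36, Srebf1, Mcm6, mt-Rnr2, Mymx, Plce1, Cd68 and Kdr) and 1 of the 46 interactions was still called, and the cause was not tested. Replicate numbers did not pair the libraries: over 9332 genes, same-numbered libraries correlated by 0.087, -0.102 and -0.053 between siMk5 BSA and PA, by 0.263, 0.208 and 0.048 between siMk5 and siNTC in BSA, and by -0.565, 0.026 and -0.473 between them in PA. With the number as a block there were 6402 calls in siMk5 and 49 in the interaction. Depth limits genes near 0 in BSA, such as Rsad2, and Mapkapk5 itself.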
